A study of Mus musculus with 50 samples.

Results

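Interleukin 4 (IL-4) response and alternative activation genes were followed in cultured macrophages and in amputated mouse digits. The group comprised 10 of the 21954 genes in the deposited tables and was chosen by name: the receptor chains Il4ra, Il13ra1 and Il13ra2, the cell surface and secreted products Retnla, Chil3, Mrc1, Mgl2 and Pdcd1lg2, and the chemokines Ccl24 and Ccl22. All 10 were read in 50 RNA-seq libraries. Of these, 9 came from macrophages grown from the bone marrow of female C57BL/6 mice in medium conditioned by L929 cells, in 3 states of 3 libraries each: baseline (M0), treated with interferon gamma and lipopolysaccharide (M1) and treated with IL-4 (M2), with M1 and M2 taken at 24 hours. Whether M0 was cultured for as long is not stated, so treatment and culture time cannot be told apart in changes from M0. The other 41 were wound beds of the third phalanx from young adult male C57Bl/6 mice. In 29 the digit was labelled non-regenerative, with 60 to 80% of the phalanx removed, and 5 were collected at 7 days and 3 at every other time (0, 3, 6, 12 and 24 hours, 3, 14 and 21 days). Digits are generally held not to regenerate when over 67% is removed, and 17 of the 29 lay above that level, 1 at it and 11 below. The remaining 12 had an intermediate level of 41 to 55% and were taken at 0 hours, 24 hours, 14 days and 21 days, 3 each. The 0 hour digits were collected at the time of amputation, so no digit of the series was left uncut. A digit library holds all cells around the wound bed, and macrophages are only some of them.

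IL-4 and the related cytokine IL-13 bind receptors that share the chain encoded by Il4ra. This chain pairs with the common gamma chain, Il2rg, or with Il13ra1, and both pairs activate the transcription factor STAT6, while Il13ra2 binds IL-13 tightly and is mainly known as a decoy. In mouse macrophages STAT6 switches on a set of genes by which the alternatively activated (M2) state is recognized, and such cells are known from tissue repair, parasite infection and allergy.

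The digit libraries held 1468749 to 13011782 counts (median 6835347) and the macrophage libraries 15683424 to 27904773 (median 24212482). Levels are given below as normalized TPM (transcript abundance, adjusted for gene length and rescaled between libraries by the authors), separately normalized for digits and macrophages, so that no level was tested across them. The 8 macrophage markers summed to 8207 to 9999 normalized TPM in the 9 cultures, each marker being present, while 4 keratinocyte markers summed to at most 1.67. In digits the macrophage sum was 36.8 to 1588 and the keratinocyte sum 21051 to 116440. The macrophage value of 1588 is non-regenerative 14 days replicate 2, and the next highest digit was at 332. Among non-regenerative digits, 7 days replicate 2 and 14 days replicate 2 stood apart, with median Spearman correlations to the other digits of 0.687 and 0.634, and the values of the latter are inflated because its column summed to 3362791 normalized TPM against 795701 to 1434851 in the other digits. The label dates formed an earlier period of 24 digits and a later one of 17, spread unevenly over the groups. The labels of 5 pairs of digits share animal mark, date and side, and 2 of these pairs fall within a comparison of 2 groups. These are non-regenerative 0 hours replicate 1 with 12 hours replicate 3, and intermediate 14 days replicate 1 with non-regenerative 14 days replicate 3. Another pair, non-regenerative 3 days replicate 3 with 7 days replicate 1, enters the test over all non-regenerative times. All 5 pairs enter the fits of all digits. Nothing states that libraries of a group came from separate cultures, and the p-values measure the spread between these samples, which may be technical.

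The promoters of 3 members are shown because they held a palindrome of the kind bound by STAT proteins. The sequences were taken from RefSeq (GRCm38.p6), in which 9 of the 10 members had an entry, and the 250 bases before each transcript start were searched. The spacing preferred by STAT6, TTC and GAA with any 4 bases between them, occurred in 2 of the 9 windows, those of Retnla and Pdcd1lg2, and the shorter spacing of other STAT proteins, with 3 bases between, in 1, that of Chil3. Each motif is its own reverse complement, so 1 search covered both strands, and the 2 motifs cannot coincide at the same start. Of all 32851 windows of that length, 5.8537% held the first motif and 7.0196% the second. A match is a string of letters and not a measured binding site. The match began 145 bases before the RefSeq start of Retnla, which lies inside the gene as GENCODE places it, 82 before that of Pdcd1lg2 and 172 before that of Chil3. The sequences run 5′ to 3′ on the strand of the gene, end at the base before the GENCODE gene, and carry the motif in capitals; they cover chr16:48842359-48842550 (plus strand) for Retnla, chr19:29410669-29410918 (plus strand) for Pdcd1lg2 and chr3:106167565-106167814 (minus strand) for Chil3.
Retnla: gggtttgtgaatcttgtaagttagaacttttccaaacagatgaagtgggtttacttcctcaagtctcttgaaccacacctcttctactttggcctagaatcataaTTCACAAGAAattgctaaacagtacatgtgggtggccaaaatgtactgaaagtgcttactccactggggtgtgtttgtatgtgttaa
Pdcd1lg2: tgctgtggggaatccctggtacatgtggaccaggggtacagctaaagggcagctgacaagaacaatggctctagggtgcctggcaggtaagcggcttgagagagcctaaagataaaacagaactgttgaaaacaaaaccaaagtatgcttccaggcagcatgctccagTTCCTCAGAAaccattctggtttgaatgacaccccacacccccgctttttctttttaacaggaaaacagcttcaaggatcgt
Chil3: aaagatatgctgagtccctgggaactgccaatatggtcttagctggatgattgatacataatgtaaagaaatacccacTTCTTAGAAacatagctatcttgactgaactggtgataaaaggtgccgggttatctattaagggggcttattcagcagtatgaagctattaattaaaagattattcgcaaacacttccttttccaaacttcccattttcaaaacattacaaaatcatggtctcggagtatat

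The first comparisons addressed how the members responded to IL-4 and to interferon gamma with lipopolysaccharide in cultured macrophages. After IL-4, 7 of the 10 members rose more than 2-fold over baseline, and none fell by that much. The 7 were Retnla, Chil3, Pdcd1lg2, Mgl2, Ccl24, Ccl22 and the decoy receptor Il13ra2. The signalling receptor chains and the mannose receptor Mrc1 moved by less. Across all 12976 genes tested with edgeR's quasi-likelihood test, 11% were called higher and 11.3% lower, where a call needed a Benjamini-Hochberg adjusted p under 0.05 together with group means (normalized count plus 1) that differed over 2-fold. The median log2 change of the members was 4.68, against -0.00354 over all genes. For the members lower in M2, edgeR, DESeq2 and limma each gave a count of 0, and 2 members (Il4ra and Mrc1) were lower at an unadjusted p under 0.05.

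Among the receptors, Il4ra (chr7:125552120-125579474, GRCm38, plus strand) stood at 103, 105 and 108 normalized TPM in M0, 778, 702 and 678 in M1 and 56.5, 58.4 and 62.6 in M2. The 3 states did not overlap, with M1 far above and M2 below baseline. In edgeR its log2 change was 2.73 ± 0.06 (SE, n = 3 against 3; adjusted p = 6e-13) in M1 and -0.89 ± 0.05 (adjusted p = 3.4e-08) in M2, the latter under 2-fold. Il13ra1 (chrX:36112110-36171259, plus strand), the partner chain that also binds IL-13, was at 19.4, 18.9 and 20.6 in M0, 102, 104 and 101 in M1 and 27.2, 24.8 and 25.9 in M2. All M1 libraries lay above all M2 libraries, which lay above all M0 libraries. The log2 change was 2.39 ± 0.05 (adjusted p = 2.51e-13) in M1 and 0.34 ± 0.06 (adjusted p = 0.000204, under 2-fold) in M2. Both signalling chains were thus higher in M1 than in M2, by a log2 difference (M2 minus M1) of -3.53 ± 0.07 for Il4ra (adjusted p = 1.11e-14) and -1.95 ± 0.05 for Il13ra1 (adjusted p = 6.83e-14).

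Il13ra2 (chrX:147383476-147429192, minus strand) had no count in any M0 library, 0.702, 1.78 and 1.118 normalized TPM in M1 and 21.3, 20.7 and 18 in M2. The states were again separate, and this receptor had its highest level in M2. Against a floor of 3 counts per library the level was at least 176-fold higher than baseline in M2 and at least 6.63-fold higher in M1 (edgeR adjusted p = 1.82e-09 and 2.21e-05).

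Among the secreted and surface products, Retnla (chr16:48842551-48844461, plus strand), which encodes the resistin-like protein RELMα (Fizz1), reached 1296, 1621 and 1298 normalized TPM in M2. It had 1 count in a single M0 library and none in M1. By mean level it stood 77th of the 21954 genes in M2. The M2 libraries held 25803 counts against 1 in M0, a ratio of counts per library total of 25341 (95% exact interval, counting error only, 4548 to 1001000), and the level in M2 was at least 1836-fold higher than in M1.

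Chil3 (chr3:106147554-106167564, minus strand), encoding the chitinase-like lectin Ym1, was at 24, 26 and 26.2 normalized TPM in M0, 1.63, 2.37 and 2.36 in M1 and 199, 234 and 235 in M2. It therefore moved in opposite directions in the 2 treatments, with no overlap. In edgeR the log2 change was -3.58 ± 0.14 (adjusted p = 9.46e-11) in M1 and 3.06 ± 0.07 (adjusted p = 1.25e-10) in M2. Mgl2 (chr11:70130329-70137550, plus strand), a lectin for galactose-type sugars, had the same order of states, with 9.93, 8.08 and 10.5 in M0, 0.486, 0.244 and 0.466 in M1 and 269, 316 and 279 in M2. Its log2 changes were -4.40 ± 0.22 (adjusted p = 1.41e-09) and 4.91 ± 0.08 (adjusted p = 1.65e-11). Chil3 and Mgl2 each have a near-identical copy, Chil4 and Clec10a, with which the authors' counting could have shared reads.

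Mrc1 (chr2:14229392-14332057, plus strand), the mannose receptor CD206, was at 863, 768 and 771 normalized TPM in M0, 47.1, 49.1 and 41.8 in M1 and 534, 598 and 601 in M2. Its highest level was that of baseline, and M2 lay between the other states without overlap. In edgeR it fell by 4.11 on the log2 scale in M1 (SE 0.07, adjusted p = 1.05e-13) and changed by -0.53 ± 0.06 in M2 (adjusted p = 1.74e-05, under 2-fold). Mrc1 was the only member tested whose M2 level was called above M1, by 3.68 ± 0.08 (adjusted p = 1.58e-14), while its fitted change from M0 to M2 was negative. It contains the microRNA gene Mir511 on the same strand.

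Pdcd1lg2 (chr19:29410919-29471161, plus strand), which encodes PD-L2, a ligand of the inhibitory receptor PD-1, had 0.197, 0.0944 and 0.236 normalized TPM in M0, 4.05, 3.93 and 3.99 in M1 and 89.5, 89.3 and 89.9 in M2. It rose in both treatments, to different levels that did not overlap. The log2 change in edgeR was 4.45 ± 0.30 (adjusted p = 2.91e-08) in M1 and 8.87 ± 0.12 (adjusted p = 3.02e-12) in M2, and the direct difference of M2 over M1 was 4.50 ± 0.07 (adjusted p = 3.15e-15).

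The 2 chemokines differed in their response to the M1 treatment. Ccl24 (chr5:135569937-135573049, minus strand), eotaxin 2, a ligand of Ccr3, was at 2.88, 4.79 and 3.55 normalized TPM in M0, 7.79, 5.11 and 7.93 in M1 and 204, 237 and 178 in M2. The M2 libraries were far above the rest, and M1 lay above M0 by a margin that did not pass the test (0.51 ± 0.26, edgeR adjusted p = 0.0799). The log2 change in M2 was 5.41 ± 0.15 (adjusted p = 2.7e-10). Ccl22 (chr8:94745590-94751699, plus strand), a ligand of Ccr4, was at 1.91, 1.33 and 1.86 in M0, 32.2, 44.3 and 33.8 in M1 and 42.6, 41.6 and 33.8 in M2. M1 and M2 overlapped and both were above M0. The log2 change was 4.41 ± 0.15 in M1 (adjusted p = 4.43e-11) and 4.45 ± 0.14 in M2 (adjusted p = 4.9e-10), and the difference of M2 over M1 was 0.15 ± 0.11 (adjusted p = 0.197).

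**Figure D1:**
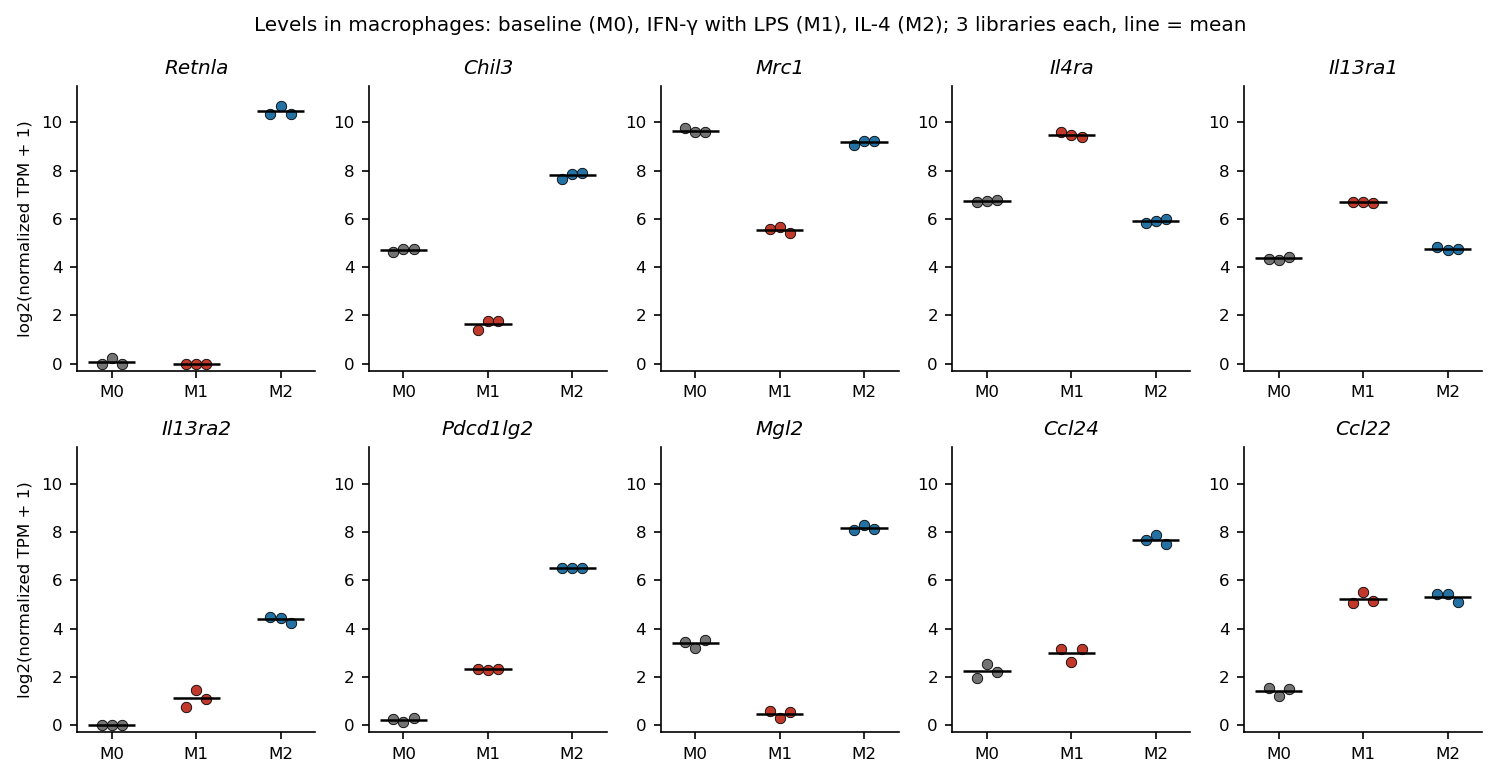
Levels of the 10 members in M0, M1 and M2 macrophages as log2 of normalized TPM plus 1; each point is a library (3 per state) and each line a mean. Retnla was at or next to 0 outside M2, Il4ra and Il13ra1 were highest in M1, and Ccl22 reached overlapping levels in M1 and M2.

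Counted over the members, M1 against M0 gave 5 higher (Il4ra, Il13ra1, Il13ra2, Pdcd1lg2 and Ccl22) and 3 lower (Chil3, Mrc1 and Mgl2) of 9 tested, Retnla being too low to test, where 20.1% of all genes were called higher and 26% lower. The median member changed by 2.39, against -0.09 over all genes (log2). M2 against M1 gave 7 higher and 2 lower of 10 tested, where 27.9% and 20.1% of all genes were called, and a median of 4.36 against 0.08. The 3 comparisons share libraries. Ordered by mean level, 18 of the 20 neighbouring pairs of states did not overlap, the exceptions being Retnla in M0 and M1 and Ccl22 in M1 and M2, where 77.6% of such pairs did not overlap among the 11820 genes whose mean reached 1 normalized TPM. No macrophage call was lost when any library was left out, and the counts did not change.

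The other genes of the pathway were taken from a list of 20, with ligands, receptor chains, kinases, Stat6 and genes known to respond to IL-4. In M2 against M0, 12 of the 17 tested were higher and 2 lower, where 11% and 11.3% of all genes were called, with a median log2 change of 2.21. The arginine-degrading enzyme Arg1 rose by 11.80, the cytokine signalling inhibitor Socs1 by 4.71, the transcription factor Egr2 by 4.66, the Ccr4 ligand Ccl17 by 5.34 and the adhesion molecule Cdh1 (E-cadherin) by 3.55, and the common gamma chain Il2rg by 2.04. The kinase Jak3 fell by 1.37 and the lectin Clec10a by 1.58, the latter in contrast to its near copy Mgl2. In M1 against M0, 8 of 15 tested were higher and 5 lower, where 20.1% and 26% of all genes were called. Arg1 rose there as well, by 11.07, and Socs1 by 6.30, while Irf4 fell by 2.32, Pparg by 1.81 and Egr2 by 1.42. Among 12 relatives, ligands and receptors of the members, M2 had 4 higher and 2 lower of 8 tested, beside the same 11% and 11.3% of all genes. Cd274, which encodes the other PD-1 ligand, PD-L1, rose in both states, by 3.31 in M2 and 7.16 in M1, and was lower in M2 than in M1 by a log2 difference of -3.76, the opposite order to Pdcd1lg2.

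The digit comparisons addressed how the same genes behaved after amputation. In non-regenerative digits the receptor chains Il4ra and Il13ra1 rose from 6 hours to 3 days, Chil3 rose at 12 and 24 hours and Ccl22 at 12 hours, and no member was called lower. Retnla had no count in any of the 41 digits and Pdcd1lg2 at most 2 counts in any digit, although both were called higher in M2. In bulk libraries, fewer cells of a type and less RNA per cell cannot be told apart.

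Il4ra was at 37.1, 24.1 and 28.8 normalized TPM at 0 hours, 54.3, 40.4 and 39.8 at 3 hours and 201, 133 and 163 at 6 hours. It was at 211, 125 and 117 at 12 hours, 244, 308 and 233 at 24 hours and 93.7, 105 and 87.2 at 3 days. All digits from 3 hours to 3 days lay above all 0 hour digits. The log2 change against 0 hours in edgeR was 2.60 ± 0.15 at 6 hours (adjusted p = 0.000595), 2.69 ± 0.22 at 12 hours (0.000551), 3.33 ± 0.17 at 24 hours (5.45e-05) and 1.86 ± 0.20 at 3 days (0.00571), and 1.195 ± 0.24 at 3 hours did not pass (adjusted p = 0.235). Within the earlier and later label dates, the ratio to 0 hours was 4.50 and 6.18 at 6 hours, 6.43 and 11.7 at 24 hours and 2.44 and 3.98 at 3 days, and 4.07 at 12 hours, where all digits were of the earlier period. Each within-period ratio, here and below, had a single digit at 1 of its 2 times. The earlier period had 1 non-regenerative digit at 0 hours, and the later period 1 each at 6 hours, 24 hours and 3 days. At 7 days the values ran from 38.9 through a median of 91.8 to 180, the highest being replicate 2, which stood apart. At 14 days they were 27.8, 344 and 164, and at 21 days 33.8, 28.8 and 28.7. The 14 day value of 27.8 lay within the 0 hour range and the others above it. The value of 344 is from the inflated column and corresponds to 102 TPM before that rescaling. The changes of 1.66 ± 0.32 at 7 days and 2.44 ± 0.75 at 14 days were not called (adjusted p = 0.156 and 0.437), the former becoming a call without replicate 2 (1.71, adjusted p = 0.0417), and 0.30 ± 0.16 at 21 days was not either (adjusted p = 0.797).

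Il13ra1 had a narrower range, at 52, 45.2 and 44.4 normalized TPM at 0 hours, 65.1, 69.4 and 83.6 at 3 hours and 168, 184 and 126 at 6 hours. It was at 177, 162 and 150 at 12 hours, 190, 163 and 166 at 24 hours and 108, 84.8 and 99.6 at 3 days. From 3 hours to 3 days no digit fell within the 0 hour range. The log2 change in edgeR was 1.81 ± 0.20 at 6 hours (adjusted p = 0.00414), 1.84 ± 0.17 at 12 hours (0.000684), 1.93 ± 0.17 at 24 hours (0.000451) and 1.06 ± 0.18 at 3 days (0.0439). The 3 day call was lost in 5 of the 6 fits that left out 1 digit, all but that without 3 days replicate 2 (log2 change 0.99 to 1.10, adjusted p = 0.0681 to 0.247). Within the earlier and later dates the ratio to 0 hours was 3.37 and 2.82 at 6 hours, 3.42 and 3.65 at 24 hours and 1.997 and 1.89 at 3 days. At 7, 14 and 21 days its log2 changes were 0.74, 0.36 and 0.39, with edgeR adjusted p of 0.994, 0.871 and 0.65. All 21 day digits (55.7, 70.1 and 60.5) nevertheless lay above 0 hours. The 14 day digits were at 12.4 in replicate 2, which stood apart, and at 80.6 and 98.2 in the others. Without replicate 2 of either time the changes were 0.83 ± 0.26 at 7 days and 0.88 ± 0.19 at 14 days. Neither was called (edgeR adjusted p = 0.292 and 0.082). Il13ra2, in contrast, showed no called change. At 3 hours its values of 0.611, 0 and 0 lay below the 1.31 to 2.14 of the 0 hour digits and were too low to test, and it ran from 0 to 16.7 over all digits, with 76 counts in the highest digit, non-regenerative 7 days replicate 2.

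The summed markers of neutrophils were also raised in these digits, from 6 hours to 14 days, mainly through S100a8 and S100a9. The 6 neutrophil markers summed to 20.4 to 24.9 normalized TPM at 0 hours, 179 to 235 at 6 hours and 393 to 1103 at 12 hours. The sums were 1131 to 1258 at 24 hours and 647 to 1099 at 3 days. They were 66.1 to 926 at 7 days and 35 to 2454.5 at 14 days, still above all 0 hour digits, and 3.3 to 28.3 at 21 days. At 24 hours, 3 of the 5 that could be tested were called higher (S100a8, S100a9 and Csf3r), beside 5.57% of all genes. The other marker, Ly6g, was too low to test and did not rise with the sum. It had at most 7 counts in a digit at 0 hours, 0 at 12 hours and 1 at 24 hours. The 8 macrophage markers summed to 66.6 to 113 at 0 hours, 36.8 to 68.7 at 6 hours and 87.3 to 116 at 12 hours. Their sums were 52.1 to 121 at 24 hours, 77.4 to 236 at 3 days and 45.1 to 332 at 7 days. At 14 days they were 160 to 1588, the highest from the inflated column, and at 21 days 73 to 162. At 12 hours 2 of the 8, Fcgr1 and Itgam, were called higher, beside 6.76% of all genes. The part of either list in the changes of Il4ra, Il13ra1 and Chil3 was not tested.

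**Figure D2:**
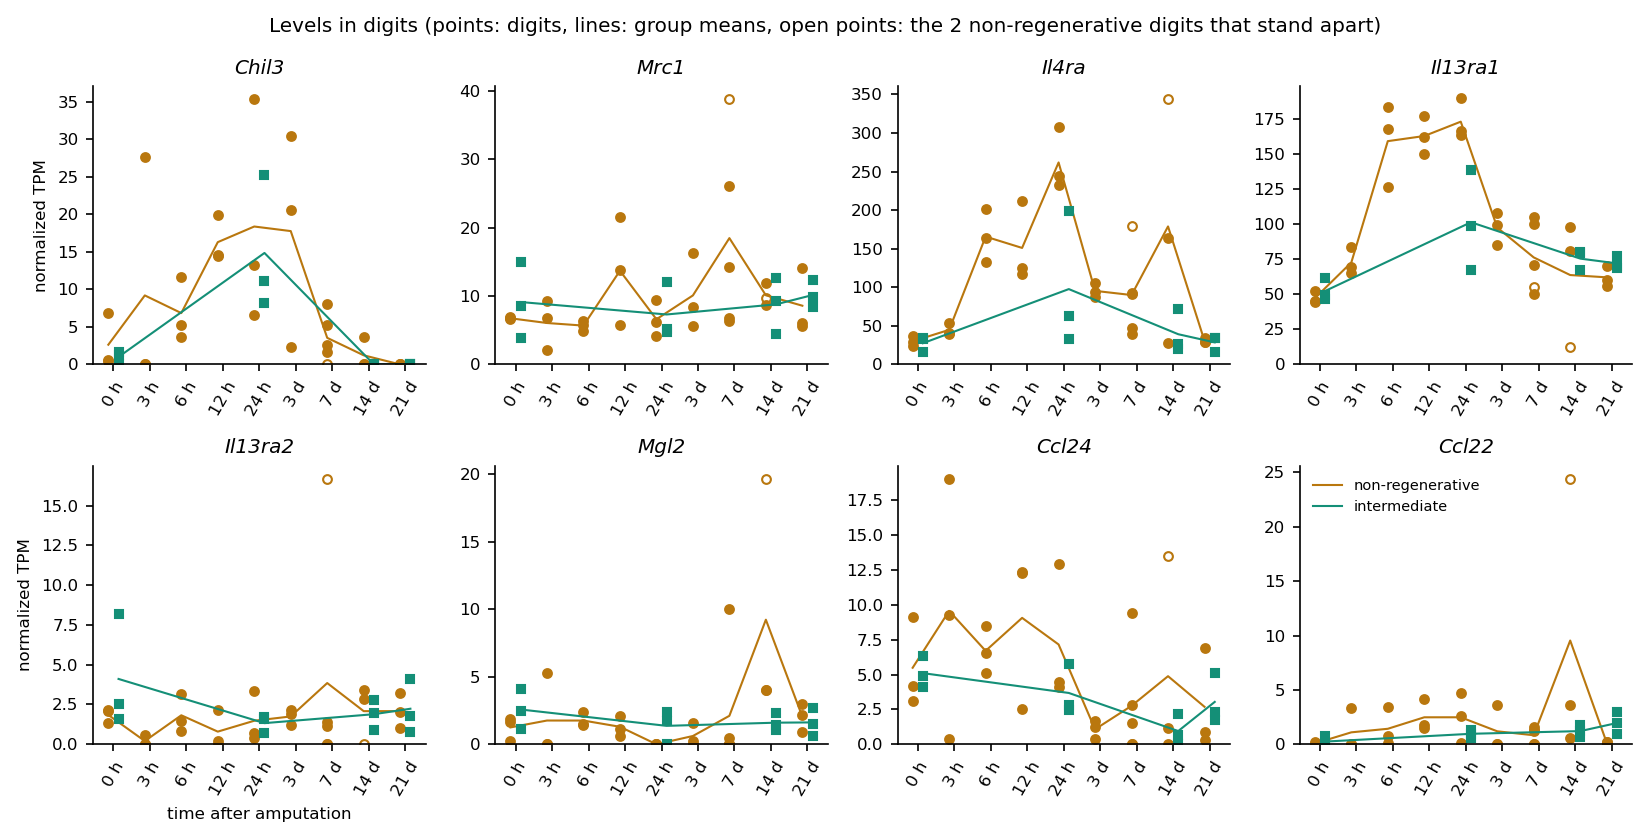
Levels of 8 members in normalized TPM (linear axes) against time after amputation; circles are non-regenerative and squares intermediate digits, lines join group means, and open circles mark the 2 digits that stand apart. Il4ra and Il13ra1 lie above all 0 hour digits from 3 hours to 3 days in non-regenerative digits, and Chil3 is at 0 in every non-regenerative digit at 21 days.

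Chil3 varied more between digits than the receptors. It was at 6.89, 0.429 and 0.563 normalized TPM at 0 hours, 14.4, 14.5 and 19.9 at 12 hours, and 13.2, 6.58 and 35.3 at 24 hours. The 12 hour digits all exceeded the 0 hour digits, and the 24 hour digits overlapped them by 1 digit. In edgeR the log2 change was 3.24 ± 0.80 at 12 hours (adjusted p = 0.0273) and 3.59 ± 0.89 at 24 hours (adjusted p = 0.0286). Leaving out 1 digit ended the 12 hour call in 5 of 6 fits, all but that without 0 hours replicate 1 (log2 change 2.72 to 3.43, adjusted p = 0.050006 to 0.109), and the 24 hour call in 4 of 6, all but those without 0 hours replicate 1 or 24 hours replicate 2 (2.85 to 3.67, adjusted p = 0.0781 to 0.0935). Within the earlier dates the ratio was 2.36 at 12 hours and 3.52 at 24 hours, and within the later dates 13.3 at 24 hours. At 3 hours the values were 0, 0 and 27.6, the last from 9 counts in the shallowest digit, and at 3 days 30.4, 2.35 and 20.5 (2.87 ± 1.16, adjusted p = 0.406). From 7 days on the level was lower, at 0 to 8.1 at 7 days, 0, 0 and 3.65 at 14 days and 0 in all 3 digits at 21 days, below all 0 hour digits and too low to test.

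Mrc1 was measured in all 41 digits, at 2.13 to 38.9 normalized TPM, and no change was called. It was at 6.62, 6.74 and 6.89 at 0 hours, 5.78, 13.8 and 21.6 at 12 hours and 4.19, 6.19 and 9.45 at 24 hours. The 12 and 24 hour digits overlapped the 0 hour digits, and the log2 change was 1.03 ± 0.40 (edgeR adjusted p = 0.105) and -0.16 ± 0.29 (adjusted p = 0.736). Without 12 hours replicate 1 the former was 1.37 and called (adjusted p = 0.015). All 6 hour digits lay below 0 hours, at 5.84, 6.29 and 4.92 (-0.18 ± 0.20, adjusted p = 0.612), and all 14 day digits above, at 8.67, 9.72 and 12 (0.09 ± 0.61, adjusted p = 0.955). The value of 9.72 is from the inflated column and rests on 39 counts, so that the separation at 14 days is not read as a rise. The highest digits, at 38.9 and 26.1, were 7 days replicates 2 and 4, and the others of that time were at 6.4 to 14.2 (1.51 ± 0.63, adjusted p = 0.999).

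Mgl2 stood at 0.21, 1.66 and 1.88 normalized TPM at 0 hours, at 0 in all 3 digits at 24 hours, and at 4.02, 19.6 and 4.01 at 14 days. The 14 day digits all lay above the 0 hour digits and the 24 hour digits all below. The value of 19.6 is from the inflated column and corresponds to 5.84 TPM before rescaling. The log2 change at 14 days was 2.42 ± 0.96 (edgeR adjusted p = 0.618). At 24 hours Mgl2 was too low to enter the fit, except without 0 hours replicate 1, when it was called lower (-6.61, adjusted p = 0.0342), the single lower call against 0 hours in any fit that left out 1 non-regenerative digit.

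Of the chemokines, Ccl22 had 0, 0.22 and 0 normalized TPM at 0 hours and 4.17, 1.48 and 1.79 at 12 hours. The 12 hour digits were all above the 0 hour digits. The 12 hour digits held 54 counts and the 0 hour digits 3, a ratio of counts per library total of 25.4 (95% exact interval 8.25 to 127), and the edgeR test gave adjusted p = 0.0212. This call was lost without 0 hours replicate 3, 12 hours replicate 1 or 12 hours replicate 3 (adjusted p = 0.0833, 0.07 and 0.061). As all 12 hour digits were of the earlier period, whose only 0 hour digit had no count, no ratio within a period could be formed. At 24 hours the values were 2.62, 0.0909 and 4.74, the later-period digit, at 0.0909, having a ratio of 0.828 to the 0 hour digits of its period. At 14 days they were 0.586, 24.4 and 3.65, all above 0 hours but not tested, with 24.4 again from the inflated column (7.25 TPM before rescaling). Ccl24 was at 9.16, 3.1 and 4.19 at 0 hours and 2.55, 12.3 and 12.3 at 12 hours, with overlap. At 3 days its values of 0.357, 1.21 and 1.66 all lay below the 0 hour digits and were too low to test. In intermediate digits it was at 4.08, 6.3 and 4.92 at 0 hours and lower in every digit at 14 days, at 0.697, 2.15 and 0, again untested. It ranged from 0 to 19 over the 41 digits, and no change was called at any time.

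Counted over the members, 2 of 6 tested were higher at 6 hours, 4 of 7 at 12 hours, 3 of 6 at 24 hours and 2 of 5 at 3 days, where 3.23%, 6.76%, 5.57% and 0.557% of all genes were called higher and 1.62%, 4.64%, 5.14% and 0.166% lower. At 3 hours, 7 days, 14 days and 21 days edgeR called 0 of 4, 3, 6 and 6 tested, where 0%, 0.0307%, 0% and 0.394% of all genes were called higher and 0%, 0.023%, 0% and 0.0583% lower. At an unadjusted p under 0.05 those times had 2, 3, 2 and 1 members higher, DESeq2 called 1, 1, 1 and 0 (Il4ra in each case) and limma 0. In all, 11 of 43 member tests were called higher and 0 lower, with no member lower at an unadjusted p under 0.05 or by DESeq2 or limma, and the 8 comparisons share the 0 hour digits. An F-test over all 9 times called Il4ra (adjusted p = 5.36e-05) and Il13ra1 (0.0123) and not Chil3 (0.0604), where 7.62% of all genes were called. Ordered by mean level, all 120 neighbouring pairs of digit groups overlapped, the 12 of Retnla being at 0 throughout. The share over all genes was not computed for digits, so this count is not read as a trait of the members. No order of the times is read from the means.

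**Figure D3:**
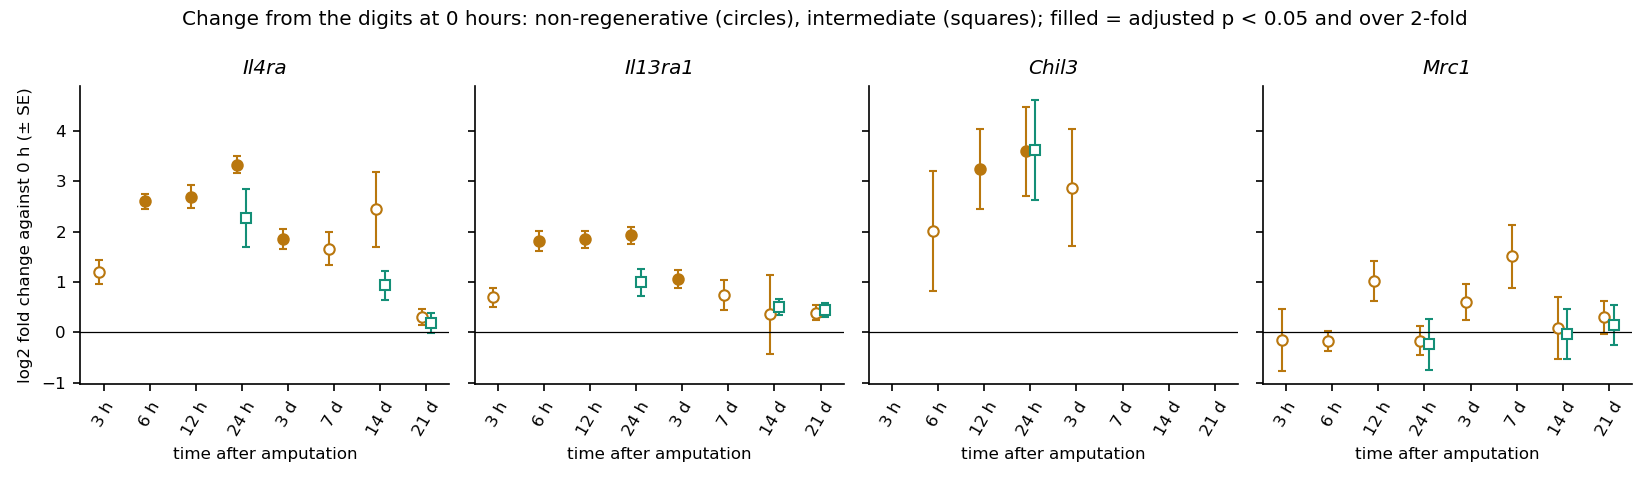
Log2 fold change against the 0 hour digits of the same amputation level (± SE, edgeR) for Il4ra, Il13ra1, Chil3 and Mrc1; circles are non-regenerative and squares intermediate digits, filled where called, and a time without a point was too low to test. Il4ra and Il13ra1 are filled at 6, 12 and 24 hours and 3 days, Chil3 at 12 and 24 hours, and Mrc1 at no time.

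In the intermediate digits the same members had raised values at 24 hours, with more spread and no call. Il4ra was at 32.6, 34.1 and 15.8 normalized TPM at 0 hours and at 198, 32.5 and 62.3 at 24 hours. A single digit, replicate 1, was far above the others, and replicate 2 lay within the 0 hour range. The log2 change was 2.27 ± 0.57 (edgeR adjusted p = 0.15), with ratios to 0 hours of 7.95 in the earlier and 1.45 in the later period. The neutrophil sums of these 3 digits were 1330, 141 and 405, in the same order as Il4ra, and 17.9 to 36 at 0 hours. At 14 days Il4ra was at 71.9, 19.7 and 25.9, beside neutrophil sums of 2168, 47.7 and 22. There replicate 1 was highest in both, and replicates 2 and 3 were in opposite orders. The 21 day values of Il4ra were 34.9, 16.7 and 34.3. Only replicate 1 of the 14 day digits exceeded the 0 hour range, and the change was 0.94 ± 0.29 (adjusted p = 0.188). The part of the neutrophil markers in these values was not tested.

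Il13ra1 was at 46.4, 49.3 and 61.3 normalized TPM at 0 hours, 139, 67.2 and 98.3 at 24 hours. Its 14 day values were 67.1, 79.8 and 79.3, and its 21 day values 68.4, 70.5 and 77.2. Each later time lay wholly above 0 hours. The log2 changes of 0.99 ± 0.27, 0.51 ± 0.16 and 0.45 ± 0.14 did not pass (edgeR adjusted p = 0.166, 0.194 and 0.167). Chil3 was at 1.64, 0.0718 and 1.29 at 0 hours, 25.3, 8.18 and 11.1 at 24 hours, 0 in all 14 day digits and 0, 0.103 and 0 at 21 days. The 24 hour digits were all above the 0 hour digits, and the change of 3.63 ± 0.99 did not pass (adjusted p = 0.172). Mrc1 stayed between 3.83 and 15 normalized TPM in all 12 intermediate digits, and its ratio at 24 hours was 0.439 in the earlier and 2.19 in the later period. Ccl22 was at 0, 0 and 0.739 at 0 hours, below every 21 day digit (0.923 to 2.95), and was not tested.

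Over the members, edgeR called 0 of 7, 5 and 6 tested at 24 hours, 14 days and 21 days, where 0.0152%, 1.49% and 1.23% of all genes were called higher and 0%, 0.187% and 0.165% lower. At an unadjusted p under 0.05, 3, 2 and 1 members were higher, DESeq2 called 2 at 24 hours (Chil3 and Il4ra) and limma 0 at any time, and no member was lower by any of these. An F-test over the 4 times called Chil3 (adjusted p = 0.0144) and Il4ra (0.0304) and not Il13ra1 (0.0653), where 6.21% of all genes were called. Neither remained called without 24 hours replicate 1. Il4ra alone was lost without any single 0 hour or 21 day digit or without 14 days replicate 2.

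The direct comparison of intermediate with non-regenerative digits asked whether the amputation level mattered at equal times. Of 26 member tests edgeR called 0, where 0% of all genes were called at 0 hours, 24 hours and 14 days and 0.648% at 21 days. At an unadjusted p under 0.05, 1 member was higher and 2 were lower, DESeq2 called 1 and limma 0. At 24 hours every intermediate digit lay below every non-regenerative digit for Il4ra (32.5 to 198 against 233 to 308) and for Il13ra1 (67.2 to 139 against 163 to 190). The log2 differences (intermediate minus non-regenerative) were -1.15 ± 0.54 (adjusted p = 0.457) and -0.79 ± 0.26 (adjusted p = 0.379). Both became calls when intermediate 24 hours replicate 1, the digit with the highest Il4ra and neutrophil sum of its group, was left out (-2.23, adjusted p = 0.00179, and -1.10, adjusted p = 0.0206). Of the 24 fits between the levels that left out 1 digit, this was the only 1 with a member called. The 2 intermediate digits left were of the later period, and 2 of the 3 non-regenerative digits were of the earlier. Level and period were therefore not well separated in that fit. The neutrophil sum at that time was 141 to 1330 in intermediate and 1131 to 1258 in non-regenerative digits.

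At 14 days Mgl2 was at 2.3, 1.42 and 1.078 normalized TPM in intermediate digits, below the 4.01 to 19.6 of the non-regenerative digits without overlap (-2.24 ± 0.87, edgeR adjusted p = 0.862). At 21 days Ccl22 was at 1.99, 2.95 and 0.923 in intermediate and 0.0659, 0.181 and 0.204 in non-regenerative digits, again without overlap. The log2 difference was 3.45 ± 0.72 (adjusted p = 0.0817), and DESeq2 called it (3.55, adjusted p = 0.00794). All 21 day intermediate digits were of the earlier period and all non-regenerative ones of the later, so that level and period cannot be told apart. A test of whether the time course differed between the levels called 0 members, where 0% of 14768 genes were called and 1048 had an unadjusted p under 0.05; its smallest member p was 0.0023, for Mgl2 (adjusted p = 0.66).

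**Figure D4:**
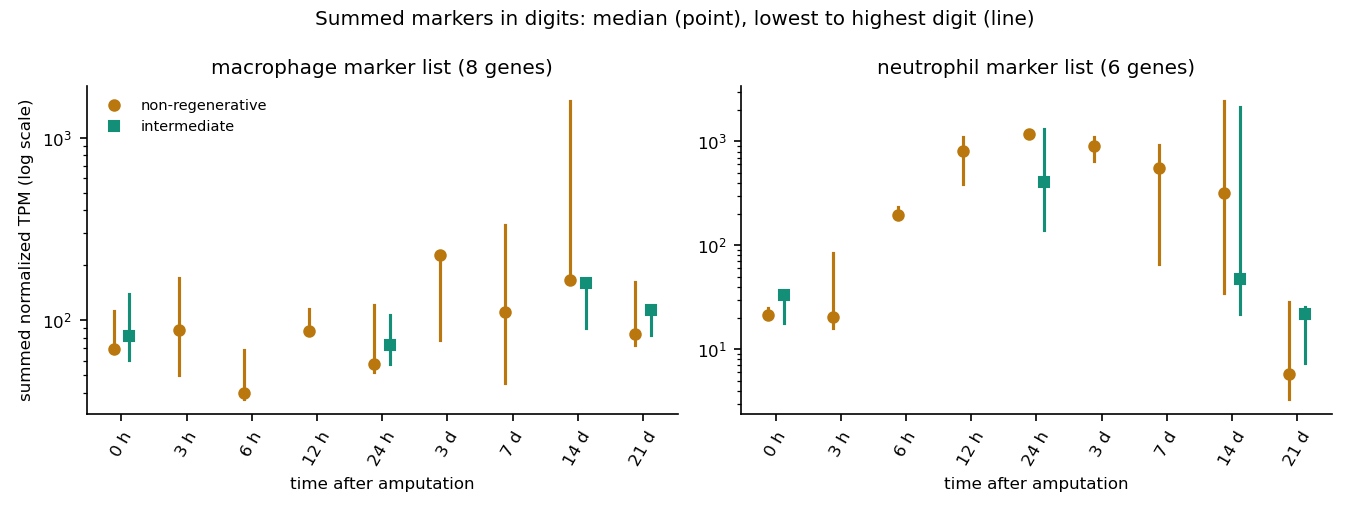
Summed normalized TPM (log axis) of 8 macrophage and 6 neutrophil markers against time after amputation; points are medians and lines run from the lowest to the highest digit, for non-regenerative (circles) and intermediate (squares) digits. The neutrophil sum of non-regenerative digits is 20.4 to 24.9 at 0 hours and 1131 to 1258 at 24 hours, and the macrophage sums of these times, 66.6 to 113 and 52.1 to 121, overlap.

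Of the members that rose in M2, Retnla and Pdcd1lg2 were at or near 0 in the digits. Retnla, at 0 counts in the 41 digits together, could have had up to 0.0103 CPM (counts scaled to library totals) over all digits and 0.231 to 2.04 in a single digit, the upper limit that a count of 0 allows. Pdcd1lg2 had 7 counts in all, in 5 digits. Il4 was counted in 24 of the 41 digits, with at most 11 counts, and Il13 in 1 digit, with 1 count, while Stat6 was present in all 41 at 38.4 to 93 normalized TPM. Of the 20 pathway genes, 2 of 14 tested were called higher and 1 lower at 12 hours in non-regenerative digits, beside 6.76% and 4.64% of all genes, namely Ccl17 (6.96, edgeR adjusted p = 0.015), the crosslinking enzyme Tgm2 (2.109, 0.0055) and the transcription factor Klf4 (-1.34, 0.031). Socs1 was the single call at 24 hours (2.22, adjusted p = 0.042), and no pathway gene was called at any other time or in intermediate digits. Arg1, which rose in both macrophage treatments, was at 23.6 to 896 normalized TPM in the digits without a call. Its non-regenerative digits at 24 hours (177 to 324) and 3 days (442 to 896) all lay above those at 0 hours (52.9 to 154). Its other times overlapped 0 hours. Among the relatives, 4 of 5 tested were higher at 12 hours, beside the same 6.76%, namely Ccl17, Cd274 (1.70), Retnlg (4.89) and Chil1 (4.99), the last 2 of the Retnla and Chil3 families, and the mannose receptor relative Mrc2 was lower (-0.999).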

How the data were processed

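RNA was read as single-end poly A libraries. Per the methods and labels, the authors aligned reads with Bowtie 0.12.8 to Ensembl 75 genes (mm10) and estimated expected counts with RSEM 1.2.3, which divides reads shared by similar genes. The deposited normalized TPM, a signal, was TPM that the authors rescaled by median-by-ratio, for digits and macrophages apart; it was used for levels. The deposited expected counts were rounded and tested with edgeR 4.0.16 in R 4.3.3 (filterByExpr, TMM, glmQLFit, glmQLFTest), on the 2 groups compared (F-tests: all digits of the groups tested), with no covariate, over all genes passing the filter. A call needed a Benjamini-Hochberg adjusted p under 0.05 and group means (normalized count plus 1) over 2-fold apart (for F-tests the p alone). Total counts were 1468749 to 13011782 per digit and 15683424 to 27904773 per macrophage library, and intervals and upper limits cover counting error only.

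All 10 members were named, with values for each called comparison and for those whose groups did not overlap. The members and gene lists were chosen with earlier results of these data known. Groups came from the labels. Alternatives were DESeq2 1.42.0, limma 3.58.1 on log2(normalized TPM + 1), other scaling and filters, all digits in 1 fit, the date period, the replicate number and each library left out. Of the gene names in the digit files, 26 had become dates and were not used by name. The scripts were tested on simulated data. Of 100 simulated 3-fold changes, 89 were recovered in M2 against M0. In non-regenerative and in intermediate digits at 24 hours against 0 hours, 57 were recovered in each. Of 100 simulated 8-fold changes, 99, 84 and 90 were recovered, and 1, 12 and 11 unchanged genes were called. A change of that smaller size in digits can thus go uncalled. Replicates differed beyond counting noise in every group. Strand was not stated in the sources used here, so that Il4ra and Pdcd1lg2 may hold reads of antisense genes (Gm44876, A930007I19Rik). Gene positions are from GENCODE M21 (GRCm38). Ccl24 has no RefSeq promoter in the table used. Some genes ranked as similar to a member are not reported here.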

Additional observations from a re-analysis of the deposited data

Results flagged for a closer look

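In a group of 5 digits, a digit was singled out when its gap to the nearest other digit exceeded 0.71 of the range of the group (Dixon's 95% critical value). The non-regenerative digits at 7 days were the only group of this size, and all 10 members were examined there. Retnla and Pdcd1lg2 were at 0 in each of these digits and could not be flagged. For normally distributed values chance flags about 1 in 20 such groups. With several digits at or near 0, that rate need not hold here. Il13ra2, the IL-13 decoy receptor, was at 16.66 normalized TPM in replicate 2 (76 counts, gap 0.91485 of the range), against 0 to 1.42 in the other digits, and replicate 2 is a digit that stood apart over all genes. Mgl2 was at 10.05 in replicate 4 (20 counts, gap 0.95186 of the range), against 0 to 0.484 in the other digits, and this digit also had an Mrc1 level of 26.1, above all others of its time but replicate 2.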

How the results depend on the processing

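None of the 35 called changes of single members reversed under the alternatives run. The macrophage counts (5 and 3 for M1 against M0, 7 and 0 for M2 against M0, 7 and 2 for M2 against M1) were unchanged when any library was left out. With the adjusted p-value alone, 2 members (Il4ra and Mrc1) were lower in M2 than in M0. Numbers did not pair the macrophage libraries (correlation of deviations -0.0747 to 0.0664 for equal numbers and -0.056 to 0.113 for others), and a replicate block left all 6 counts as they were. For intermediate digits against 0 hours, DESeq2 gave 2 members higher, and 1 fit of all digits gave 1 (Il4ra at 24 hours, adjusted p = 0.0388), as it did with the date period (1, adjusted p = 0.0357). For intermediate against non-regenerative digits DESeq2 gave 1. Leaving out 1 digit gave 7 to 12 higher calls (7 without 0 hours replicate 3) and 0 to 1 lower calls in non-regenerative digits, 0 to 0 higher and lower in intermediate digits, 0 to 2 between the levels, and 2 to 3 and 0 to 3 members varying with time in non-regenerative and intermediate digits, and 0 to 0 with a different time course. Without both digits that stood apart, an alternative added after seeing the data, there were 12 higher calls. Il4ra and Il13ra1 were called at 6, 12 and 24 hours in every alternative, while of 7 alternatives Il4ra at 3 days was lost in 2, both fits of all digits (adjusted p = 0.102 and 0.118), Chil3 at 12 hours in 2, and Chil3 at 24 hours, Ccl22 at 12 hours and Il13ra1 at 3 days in 3 each; the cause was not tested. The fit of all digits also called Il4ra at 7 and 14 days (adjusted p = 0.0495 and 0.00309). Depth limits Retnla, Pdcd1lg2, Il13ra2, Mgl2, Ccl24, Ccl22 and Chil3 in digits, which rest on 0 to 95 counts per digit.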

Other observations

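The genes whose levels ranked most like a member over the 41 digits are given as a description. The comparison used 13691 genes with a mean of at least 1 normalized TPM, and the digits share time points and groups. For Il4ra they were Cfl1 (cofilin, Spearman rho 0.875), Arhgdib (0.862) and Slc35f6 (0.836), and those for Il13ra1 included Fam167a (0.872) and Capn2 (0.857). Those for Chil3 included Slfn1 (0.835) and the plasminogen activator Plau (0.783). For Mrc1 they were Cd300ld3 (0.726), Zeb1 (0.707) and Slc43a3 (0.706). The leading values were lower for Ccl24 (Has1, 0.720), Mgl2 (Id3, 0.709), Ccl22 (Ece2, 0.634) and Il13ra2 (Cdca2, 0.628), which rest on few counts. Retnla and Pdcd1lg2 were too low to rank.

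Markers of other cell types that can carry member transcripts were also read. Over the 41 digits, 4 eosinophil markers summed to 0 to 35.1 normalized TPM (median 0.171), 4 mast cell and basophil markers to 0.397 to 35, and 6 dendritic cell markers to 0.804 to 54.5. The eosinophil maximum was non-regenerative 6 hours replicate 1, mostly from Prg2 (33.2). The mast cell and basophil maximum was the inflated column of 14 days replicate 2, with 33.9 in the next digit. The dendritic cell maximum was 7 days replicate 2, which stood apart, and came from Cd209a alone. In the macrophage cultures the dendritic cell markers summed to 15.9 to 273 and the neutrophil markers to 159 to 467.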
